A study of Rattus norvegicus with 10 samples.

Results

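Pancreatic islets of F344 rats that carry the lyp genotype were compared with islets of F344 rats that do not. The comparison comprised 4 of the 10 arrays of the series, 2 labelled F344lyp and 2 labelled F344, and every probe set except the Affymetrix controls, which left 31042 of 31099 probe sets. Both groups were males aged 40 days, fasted before the islets were collected, and both are labelled healthy controls. The sample titles give the genotype as F344lyp, and the protocol text writes F344lyp/lyp. The other 6 arrays hold the DR+/+, JB and JBlyp/lyp groups of BB (BioBreeding) rats of the same age, of which JBlyp/lyp animals are homozygous for the mutation and prone to diabetes. The arrays are described as biological replicates, but neither separate animals nor pooled islets are stated. Each p-value rests on the spread between arrays within groups, pooled over all 10 arrays of the series, and not on a known number of animals. The series was designed around oxidative stress capacity in BB islets, and the F344 pair gives the lyp genotype on a background without BB diabetes.

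The lyp locus is the lymphopenia locus of the BB rat, and its mutation is a frameshift in Gimap5, a GTPase of the immune-associated family that mature T cells need for survival. Rats homozygous for it have few peripheral T cells, and in BB strains the genotype is a precondition of spontaneous autoimmune diabetes. A strain such as F344lyp is made by crossing the locus onto another strain, so that chromosome segments of the donor near the gene come with it. The extent of the donor segment is not given in the sources used here. An islet preparation also carries exocrine acinar and ductal tissue, nerve endings, vessels and resident immune cells.

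The 4 arrays were alike in overall signal. Their median log2 levels ran from 5.42 to 5.44, the F344 replicates correlated over probe sets at r = 0.997 and the F344lyp replicates at r = 0.993, and correlations between the groups ran from 0.983 to 0.988. The 3′ minus 5′ difference of the Gapdh control probe sets, a measure of RNA integrity, was 2.43 and 2.35 on the F344 arrays and 2.20 and 2.19 on the F344lyp arrays. The groups did not overlap on this measure. Islet identity was clear on every array: Ins1, which encodes insulin, was the brightest probe set at 14.27 and 14.26 in F344 and 14.14 and 14.12 in F344lyp.

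In F344lyp islets 225 genes were higher and 45 were lower than in F344 islets. Each gene was represented by its brightest probe set, and a gene was called at a limma adjusted p under 0.05. The calls make up 1.9% of 14217 genes, or 1.58% higher and 0.317% lower, and the median difference over all genes was 0.04 on the log2 scale. At an unadjusted p under 0.05 stood 17.2% of all genes, 11.3% higher and 5.86% lower, which is the background for the unadjusted counts given below for the gene lists. Over probe sets the counts were 349 higher (1.12%) and 119 lower (0.383%), together 1.51% of all tested. Of the called genes, 144 were at least 2-fold higher and 21 at least 2-fold lower, and 36 were at least 4-fold higher and 2 at least 4-fold lower. The number depends on single arrays: it was 57 without F344 replicate 1, 45 without F344 replicate 2, 136 without F344lyp replicate 1 and 57 without F344lyp replicate 2. In these fits the remaining array of the group was assumed to vary like the other groups. With the Gapdh 3′ minus 5′ difference as a covariate 83 genes were called. After quantile normalization the split was 207 higher and 89 lower, so that 69.9% of calls were higher in place of 83.3%.

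**Figure D1:**
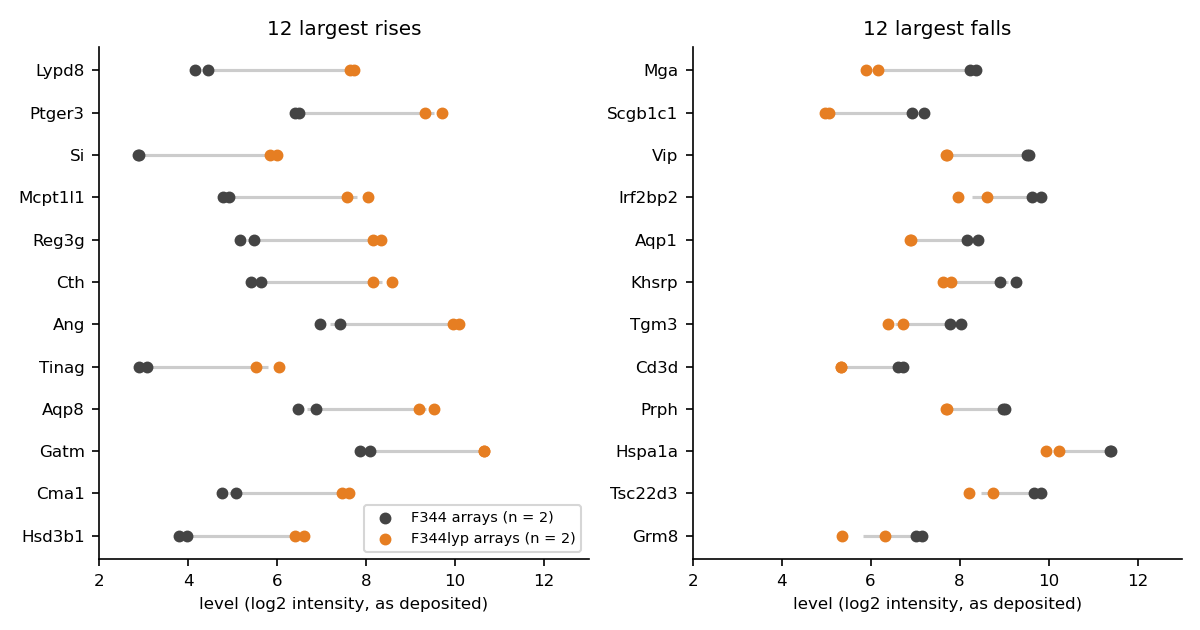
Level on each of the 4 arrays (log2 intensity, horizontal axis) for the 12 named genes with the largest rises (left) and falls (right). Dark points are the F344 arrays, orange points the F344lyp arrays and grey lines join the group means. By the rule that chose them the groups do not overlap for any of the 24 genes, which holds for all 270 called genes. It also holds for 8380 of all 14217 genes. Grm8 has the widest F344lyp pair, at 6.33 and 5.36.

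The largest rise belonged to Lypd8, a secreted protein known from the colonic epithelium, where it keeps flagellated bacteria away from the mucosa. Its level was 4.44 and 4.16 in F344 and 7.73 and 7.63 in F344lyp, a difference of 3.38 (SE 0.17, adjusted p = 3.82e-05) or 10.4-fold. The F344lyp arrays stood far above the other 8, since the JB, JBlyp/lyp and DR+/+ means were 3.69, 3.55 and 3.99. Ptger3, a prostaglandin E2 receptor, measured 6.39 and 6.48 in F344 against 9.33 and 9.71 in F344lyp, a difference of 3.09 (SE 0.17), and its other probe set also rose, by 1.19. Si, the brush border disaccharidase sucrase-isomaltase, measured 2.88 and 2.9 against 5.84 and 5.99, a difference of 3.03 (SE 0.14). For Si the F344 level lies near the bottom of the scale, whose lowest values are 2.26 to 2.30 on these arrays.

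Among the 12 largest rises were also enzymes and secreted proteins. Ang, the ribonuclease angiogenin, rose by 2.83 and Hsd3b1, a steroid dehydrogenase, by 2.62. Tinag, a basement membrane protein, rose by 2.81, from 3.08 and 2.9 to 5.53 and 6.05. Mcpt1l1, a mast cell protease family member, rose by 2.94 and the chymase Cma1 by 2.62. Cth, Reg3g, Aqp8 and Gatm complete the 12 and belong to the gene groups described next. All 12 stayed called whichever of the 4 arrays was left out.

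The regenerating (Reg) lectins were the gene group with the highest median. These small secreted C-type lectins are made by acinar cells and gut epithelium, several kill bacteria, and they are known to be induced in pancreatitis and in inflamed islets. All 4 measured members rose (100% of the list, beside 1.58% of all genes called higher), with a median of 2.12. Reg3g measured 5.47 and 5.17 in F344 and 8.16 and 8.33 in F344lyp, a difference of 2.92 (SE 0.16, adjusted p = 4.53e-05). Reg3a measured 10.28 and 9.84 against 12.39 and 12.7, a difference of 2.49 (SE 0.22, adjusted p = 0.000628). Reg1a measured 11.68 and 11.36 against 13.08 and 13.46, a difference of 1.75 (SE 0.36, adjusted p = 0.0482). Reg3b measured 11.86 and 11.72 against 12.66 and 13.05, a difference of 1.06 (SE 0.2, adjusted p = 0.0342). The F344 and F344lyp arrays did not overlap for any of the 4 genes, which was so for all 270 called genes and for 8380 of all 14217 genes. Reg3g and Reg3a kept their calls whichever array was left out, and Reg1a and Reg3b lost theirs in each of the 4 cases, so that 2 of 4 were called then. After quantile normalization 2 were called as well. Probe sets of such close relatives can share target sequence, so the 4 values are not fully separate measurements.

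The 4 genes lie close together on chromosome 4, the chromosome of Gimap5, at 597, 599, 600 and 602 annotated genes from it. Their 250 bases before the annotated start, from RefSeq on build GRCr8, are shown because these nearby genes rose together. Capitals mark TATAAA and the 9-letter STAT motif TTCNNNGAA on either strand. The regions are, in map order, chr4:112419526-112419775 (Reg3b, plus strand), chr4:112430147-112430396 (Reg3a, plus strand), chr4:112450216-112450465 (Reg1a, plus strand) and chr4:112484739-112484988 (Reg3g, minus strand).
Reg3b: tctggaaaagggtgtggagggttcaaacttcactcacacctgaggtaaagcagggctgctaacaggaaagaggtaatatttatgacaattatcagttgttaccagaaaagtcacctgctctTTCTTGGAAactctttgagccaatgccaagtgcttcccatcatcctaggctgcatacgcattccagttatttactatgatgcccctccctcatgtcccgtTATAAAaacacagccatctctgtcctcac
Reg3a: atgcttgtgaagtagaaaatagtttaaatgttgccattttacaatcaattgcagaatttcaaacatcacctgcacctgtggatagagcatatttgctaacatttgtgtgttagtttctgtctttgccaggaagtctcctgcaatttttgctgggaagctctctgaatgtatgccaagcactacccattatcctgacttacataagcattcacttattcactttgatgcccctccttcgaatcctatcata
Reg1a: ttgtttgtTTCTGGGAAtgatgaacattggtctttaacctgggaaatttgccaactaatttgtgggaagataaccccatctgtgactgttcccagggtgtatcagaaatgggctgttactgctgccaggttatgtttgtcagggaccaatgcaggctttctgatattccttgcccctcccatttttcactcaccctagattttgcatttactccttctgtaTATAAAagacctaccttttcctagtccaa
Reg3g: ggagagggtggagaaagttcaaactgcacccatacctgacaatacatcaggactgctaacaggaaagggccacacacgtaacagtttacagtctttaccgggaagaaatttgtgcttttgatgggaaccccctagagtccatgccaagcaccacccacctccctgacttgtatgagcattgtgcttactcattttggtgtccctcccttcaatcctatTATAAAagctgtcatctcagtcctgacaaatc
TATAAA stood 29 bases before the start in Reg3b and Reg1a and 32 bases before it in Reg3g, and these letters are not in the window of Reg3a. It occurs in 13.1% of 27457 such windows. The STAT motif was found in Reg3b and Reg1a, 129 and 242 bases before the start, and in 7.52% of all windows. In pairwise global alignments the windows of Reg3b and Reg3g were the most alike, at 63.5% identity, and those of Reg1a and Reg3g the least, at 48.5%. These matches are descriptions of letters and not of bound sites.

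Genes of acinar cells, which make and secrete the digestive enzymes, rose in part in F344lyp. Of 36 measured members 12 rose and 0 fell in the limma fit, where 20 had an unadjusted p under 0.05, all higher. All 36 differences were at or above 0, with a median of 0.69 beside 0.04 over all genes. The share called, 33.3%, stands beside 1.58% called higher among all genes. Ptf1a, the transcription factor that specifies acinar cells, measured 6.16 and 6.26 in F344 and 8.67 and 8.77 in F344lyp, a difference of 2.51 (SE 0.23, adjusted p = 0.000686). Aqp8, a water channel of acinar cells, rose by 2.68, from 6.87 and 6.47 to 9.18 and 9.53. Cuzd1, a zymogen granule membrane protein, rose by 2.27, from 9.68 and 9.46 to 11.67 and 12.01. Gatm, the first enzyme of creatine synthesis, rose by 2.67, though its other probe set differed by 0.01. Spink1, the secretory trypsin inhibitor, rose by 2.02, Tff2, a trefoil peptide, by 2.1 and Gp2, the main granule membrane glycoprotein, by 1.36. The chaperones Erp27 and Pdia2 rose by 2.19 and 1.79, the serpin Serpini2 by 1.62, the mucin Muc1 by 1.57 and Dmbt1 by 0.8.

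The most abundant digestive enzymes gave no call. All 19 acinar genes with a mean F344 level of at least 12 went uncalled, with differences from 0.00 to 0.93 and a median of 0.47, while 12 of the 17 below that level were called, with a median of 1.62. The 4 defining enzymes gave differences of 0.19 for the amylase Amy2a3, 0.30 for the lipase Pnlip, 0.47 for the carboxypeptidase Cpa1 and 0.30 for the chymotrypsinogen Ctrb1. Trypsinogen transcripts were at the top of the scale, Prss1 at 13.88 and 13.72 against 13.83 and 13.98. The brightest value on these arrays was 14.27, and whether the scale limits the differences of such bright genes was not tested. The amylase gene Amy1 was measured at a lower level, 6.18 and 6.65 against 8.33 and 8.57, and rose by 2.04. Summed over the list, the linear intensities were 214129 and 188352 in F344 and 271714 and 318034 in F344lyp. In bulk islets more acinar cells and more RNA per acinar cell cannot be told apart. The count of called members was 6, 6, 8 and 6 without F344 replicate 1, F344 replicate 2, F344lyp replicate 1 and F344lyp replicate 2, and 6 with the Gapdh covariate.

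**Figure D2:**
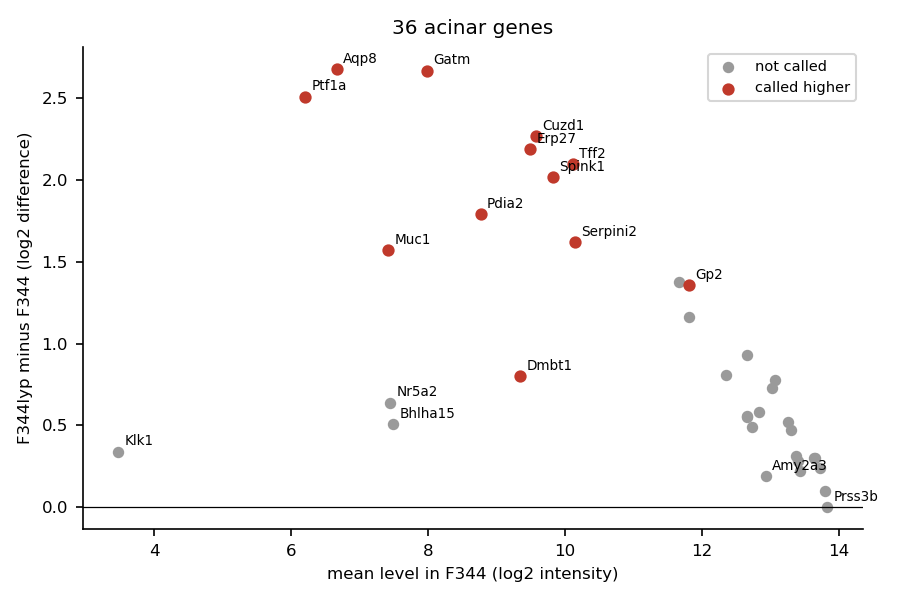
Difference F344lyp minus F344 (log2, vertical axis) against the mean F344 level (log2 intensity, horizontal axis) for the 36 acinar genes. Red points are called higher and grey points are not called: the 19 genes at a level of 12 or more lie between 0.00 and 0.93, and the called genes lie below that level.

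The PTF1 complex, of which Ptf1a is the defining subunit, is known to bind an E-box with the letters CACCTG and a box with the letters TTTCCC in acinar promoters. A search of both strands of the 250 bases before the start found CACCTG in 14 of the 28 acinar genes that have a promoter in the RefSeq table (50%), beside 15.6% of all windows, and TTTCCC in 11 of 28 (39.3%), beside 22.1%. Among the 12 called acinar genes 9 have a window, of which 3 hold CACCTG (33.3%) and 2 hold TTTCCC (22.2%). Both boxes together stood in 6 of the 28 acinar windows (21.4%, beside 3.23% of all windows) and in 0 of the 9 called ones. Of the called members shown here, Cuzd1 carries TTTCCC and Pdia2 carries the E-box, marked by capitals. The windows are chr1:195532734-195532983 (Cuzd1, minus strand) and chr10:15723376-15723625 (Pdia2, minus strand), GRCr8.
Cuzd1: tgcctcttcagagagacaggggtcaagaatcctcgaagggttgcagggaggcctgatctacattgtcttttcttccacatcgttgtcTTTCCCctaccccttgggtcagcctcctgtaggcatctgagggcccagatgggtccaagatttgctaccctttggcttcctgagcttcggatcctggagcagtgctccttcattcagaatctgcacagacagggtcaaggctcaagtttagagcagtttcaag
Pdia2: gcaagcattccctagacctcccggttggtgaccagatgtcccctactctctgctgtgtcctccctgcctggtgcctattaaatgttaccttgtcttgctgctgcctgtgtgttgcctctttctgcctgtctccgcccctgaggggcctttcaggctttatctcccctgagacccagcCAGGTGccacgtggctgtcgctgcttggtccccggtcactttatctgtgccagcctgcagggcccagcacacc
The box in Cuzd1 starts 163 bases before the annotated start. In Pdia2 the E-box reads CAGGTG on the printed strand, the reverse complement of CACCTG, and starts 73 bases before it.

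Genes known from intestinal epithelium rose in part. Of 26 measured members 9 rose and 0 fell in the limma fit, with 16 at an unadjusted p under 0.05, all of them higher. The median was 0.53, and 34.6% were called beside 1.58% called higher among all genes. Lgals4, a galectin of the gut lining, measured 5.2 and 5.14 in F344 and 7.51 and 7.57 in F344lyp, a difference of 2.37 (SE 0.14, adjusted p = 6.52e-05). Apoa1, the apolipoprotein of high-density lipoprotein, rose by 2.27, from 3.77 and 3.64 to 6.0 and 5.95. Muc2, the gel-forming mucin of goblet cells, rose by 2.12, from 5.08 and 5.43 to 7.36 and 7.4, and the cadherin Cdh17 by 2.15. The mucus protein Fcgbp rose by 1.18, the mucin Muc13 by 1.12, the aminopeptidase Anpep by 1.44, Agr2 by 1.44 and Clca4 by 1.43. The intestinal transcription factors were not called: Cdx2 differed by 0.01 and Cdx1 by -0.23, and the fatty acid binding proteins Fabp1 and Fabp2 differed by 0.27 and 0.61 without a call. Si and Lypd8 lie outside the list. The summed intensity of the list was 1381 and 1325 in F344 and 2611 and 2623 in F344lyp, and what part other tissue has in it was not tested. Leaving out F344 replicate 1, F344 replicate 2, F344lyp replicate 1 or F344lyp replicate 2 left 5, 3, 6 and 4 called.

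Mesothelial genes, which mark the lining of the abdominal cavity and organ surfaces, gave 4 calls among 17, all higher, with a list median of 0.14. The share called was 23.5%, beside 1.58% called higher among all genes. Lrrn4 rose by 1.71, from 5.53 and 5.44 to 7.1 and 7.29, and Upk1b, a uroplakin, by 1.27. The transcription factor Wt1 rose by 1.47, from 4.0 and 4.23 to 5.4 and 5.77, but its other probe set differed by 0.1. C3, the central complement component, rose by 2.04. Msln, which encodes mesothelin, differed by 0.14 and was not called. The summed intensity of the list was 23264 and 20713 in F344 and 18031 and 23652 in F344lyp, so the groups overlapped on it. Leaving out F344 replicate 1, F344 replicate 2, F344lyp replicate 1 or F344lyp replicate 2 left 1, 1, 3 and 1 called.

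Of the mast cell and eosinophil list 3 of 20 genes rose, all encoding granule proteases, 15% beside 1.58% called higher among all genes, and the list median was -0.01. Cma1 measured 5.08 and 4.75 in F344 and 7.46 and 7.62 in F344lyp, and Cpa3, the mast cell carboxypeptidase, 5.46 and 5.28 against 7.4 and 7.59, a difference of 2.13 (SE 0.18, adjusted p = 0.0005). The tryptase Tpsab1 rose by 1.02, from 4.31 on both arrays to 5.31 and 5.36. Other mast cell genes did not pass the test: the receptor tyrosine kinase Kit differed by 0.03, the IgE receptor subunits Ms4a2 and Fcer1a by -0.09 and 0.5, and the histidine decarboxylase Hdc by 0.14. Leaving out any 1 of the 4 arrays left 2 called, Cma1 and Cpa3.

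Among chemokines and cytokines 4 of 57 measured genes rose and 0 fell in the limma fit, and the share called was 7.02% beside 1.58% called higher among all genes. At an unadjusted p under 0.05 stood 13 of the 57, or 22.8% beside 17.2% of all genes. Ccl6 rose by 1.42, Ccl2, the monocyte attractant, by 1.25, Cxcl13, the B cell attractant, by 1.14 and Il15, a survival factor for memory T cells and NK cells, by 0.82. None of the 4 calls was kept when any array was left out. Adgre1, the macrophage marker F4/80, rose by 0.91. It was the 1 called gene among 36 of macrophages and dendritic cells, 2.78% beside 1.58% called higher among all genes, with a list median of 0.28. At an unadjusted p under 0.05 in the limma fit stood 15 of the 36, or 41.7% beside 17.2% of all genes. Of these 13 were higher and 2 lower. Of the MHC class I list 1 of 16 rose (6.25%), the peptide trimming enzyme Erap1, by 0.9. Adgre1 and Erap1 lost their calls whichever array was left out. No gene was called among 41 of the interferon response, with a median of 0.17 and 9 (22%, beside 17.2% of all genes) at an unadjusted p under 0.05, nor among 15 of MHC class II (2 at an unadjusted p under 0.05) or 9 of neutrophils (1), all in the limma fit.

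**Figure D3:**
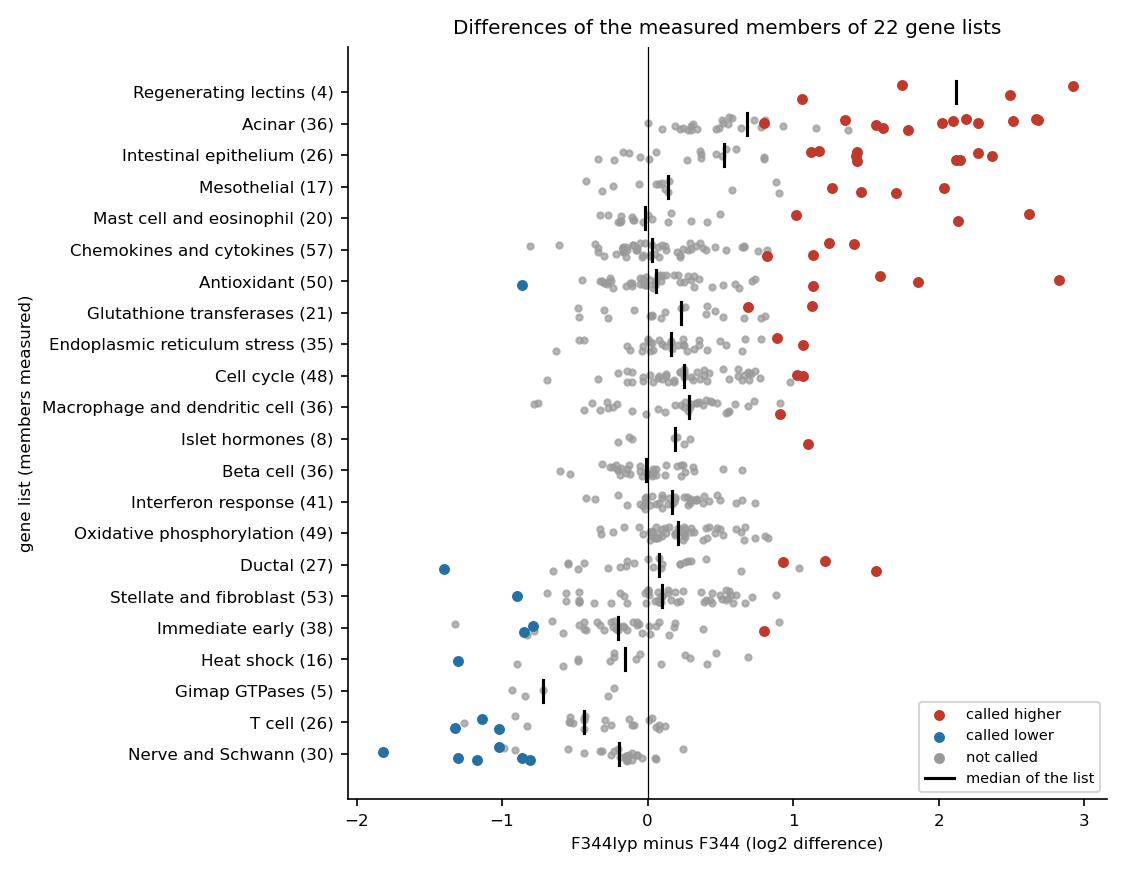
Difference F344lyp minus F344 (log2, horizontal axis) of every measured member of 22 gene lists, with the number of members in parentheses. Red points are called higher, blue points called lower and grey points not called, and black bars are list medians. The bars run from 2.12 for the Reg lectins to -0.72 for the Gimap GTPases.

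For oxidative stress, the subject of the series, 4 of 50 antioxidant genes rose and 1 fell, 10.0% of the list beside 1.9% of all genes, and the list median was 0.06. Both enzymes of the transsulfuration pathway, which makes cysteine for glutathione from homocysteine, were higher. Cth, which releases the cysteine, measured 5.64 and 5.42 in F344 and 8.15 and 8.57 in F344lyp, a difference of 2.83 (SE 0.17, adjusted p = 6.52e-05). Cbs, which forms cystathionine, measured 6.4 and 6.58 against 8.48 and 8.22, a difference of 1.86 (SE 0.2, adjusted p = 0.00252). Slc7a11, the cystine importer, rose by 1.14, from 4.61 and 4.44 to 5.62 and 5.72. Prdx4, the peroxiredoxin of the endoplasmic reticulum, rose by 1.6, from 9.8 and 9.64 to 11.13 and 11.51. Sesn2, a stress-induced sestrin, fell by 0.86, from 9.22 and 9.25 to 8.28 and 8.48. Cth and Cbs stayed called whichever array was left out, and the others lost their calls each time, so that 2 genes were called higher then.

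Other enzymes that remove superoxide and peroxide were not called. Superoxide dismutases Sod1, Sod2 and Sod3 differed by -0.03, 0.32 and -0.11, catalase (Cat) by -0.27 and the glutathione peroxidases Gpx1 and Gpx4 by 0.72 and -0.05. Hmox1, the inducible heme oxygenase, differed by 0.28 and Nqo1, a quinone reductase, by 0.18, and the transcription factor above them, Nfe2l2, by 0.3. The rate-limiting subunit of glutathione synthesis, Gclc, differed by 0.52 and its partner Gclm by 0.32. Among 21 glutathione transferases 2 rose, Gstm2 by 1.13 and Gstm1 by 0.69, which is 9.52% beside 1.58% called higher among all genes, with a median of 0.23. Of 35 genes of endoplasmic reticulum stress 2 rose (5.71%, beside the same 1.58%), Sel1l, a subunit of the degradation complex, by 1.07 and Wfs1, which encodes wolframin, by 0.89. The sensor targets Hspa5 and Ddit3 differed by 0.02 and -0.63 without a call. With any 1 array left out at most 1 of the glutathione transferases and 0 of the stress genes stayed called.

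The 12 largest falls were led by Mga, a transcription factor of the MAX network, at 8.36 and 8.23 in F344 and 5.89 and 6.17 in F344lyp, a difference of -2.27 (SE 0.4, adjusted p = 0.0252). Its other probe sets differed by -0.24 and -0.1. Scgb1c1, a secretoglobin, fell by 2.04, from 7.2 and 6.94 to 4.98 and 5.07. The corepressor Irf2bp2 fell by 1.44 on its brightest probe set while its other probe set differed by 0.89, and the splicing regulator Khsrp fell by 1.37 while its others differed by -0.08 and -0.43. Tgm3, a transglutaminase, fell by 1.36 and Tsc22d3, a glucocorticoid-induced leucine zipper protein, by 1.27. The glutamate receptor Grm8 fell by 1.24 while its other probe sets differed by -0.02 and -0.11. Of these genes Scgb1c1 kept its call whichever array was left out, and Mga and Khsrp lost theirs in every case.

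T cell genes were lower in part. The T cell list gave 3 falls and 0 rises among 26 measured genes, 11.5% beside 0.317% called lower among all genes, with a median of -0.43 and 12 genes at an unadjusted p under 0.05, all lower. Cd3d, a subunit of the T cell receptor complex, measured 6.73 and 6.61 in F344 and 5.34 on both F344lyp arrays, a difference of -1.32 (SE 0.13, adjusted p = 0.000937). Cd8a, the coreceptor of cytotoxic T cells, measured 4.42 and 4.58 against 3.31 and 3.42 and fell by 1.14, with differences of -0.12 and -0.32 on its other probe sets. Tcf7, a transcription factor of naive T cells, fell by 1.02, from 6.48 and 6.18 to 5.38 and 5.25. The other defining markers missed the threshold: Cd3e measured 6.43 and 6.35 against 5.37 and 4.9, and Cd3g 5.86 and 6.03 against 4.54 and 5.52. The summed intensity of the list was 1201 and 1141 in F344 and 838 and 818 in F344lyp. Fewer T cells and less RNA per T cell cannot be told apart here. Cd3d was the 1 call left whichever array was left out.

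The Gimap genes were low but not called. Gimap5 itself measured 7.03 and 6.82 in F344 and 5.96 and 6.02 in F344lyp, a difference of -0.93 (SE 0.29, adjusted p = 0.158). The groups did not overlap, which was so for 8380 of all 14217 genes. Gimap7 differed by -0.84, Gimap1 by -0.72, Gimap4 by -0.27 and Gimap6 by -0.23, so all 5 were below 0, with a median of -0.72. In the limma fit 3 of the 5 had an unadjusted p under 0.05. When the fit used the 4 arrays of the comparison alone 3 were called lower. That fit called 461 of 14217 genes lower, beside 45 in the main fit. In DR+/+ islets Gimap5 stood at 8.22 and 8.41, above every F344 and F344lyp array. The lyp mutation changes the reading frame, and a probe set for the transcript does not read it, so this level is no check of the genotype. Lists of other lymphocytes gave no call: 18 NK cell genes had a median of -0.02 (1 at an unadjusted p under 0.05) and 13 B cell genes a median of -0.22 (3 at an unadjusted p under 0.05).

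Neuronal genes fell in part. Of 30 measured genes of nerve and Schwann cells 6 fell and 0 rose in the limma fit, with 10 at an unadjusted p under 0.05, all lower, and 27 of 30 differences were below 0. The share called was 20% beside 0.317% called lower among all genes, and the list median was -0.20. Vip, the vasoactive intestinal peptide of pancreatic ganglia, measured 9.51 and 9.55 in F344 and 7.72 and 7.7 in F344lyp, a difference of -1.82 (SE 0.15, adjusted p = 0.000398). Prph, which encodes the peripheral intermediate filament peripherin, measured 8.97 and 9.03 against 7.71 and 7.69, a difference of -1.3. Gap43, a protein of growing axons, measured 8.43 and 8.47 against 7.31 and 7.25, though its other probe set differed by 0.02. Nefm, a neurofilament, fell by 1.02, from 7.03 on both arrays to 5.98 and 6.03, Dbh, the enzyme that makes noradrenaline, by 0.86 and Stmn2 by 0.81. Schwann cell genes were not called: Sox10 differed by -0.14, S100b by -0.13 and Mbp by -0.33. The summed intensity of the list was 9015 and 8570 in F344 and 6882 and 7514 in F344lyp, and the part of the tissue carried along in the preparation was not tested. Leaving out F344 replicate 1, F344 replicate 2, F344lyp replicate 1 or F344lyp replicate 2 left 1, 1, 3 and 1 called.

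Stress and immediate early genes gave a mixed picture. Hspa1a, the inducible heat shock protein, measured 11.4 and 11.38 in F344 and 9.95 and 10.23 in F344lyp, a difference of -1.3 (SE 0.15, adjusted p = 0.00309), and was the 1 call among 16 heat shock genes (6.25%, beside 0.317% of all genes called lower), lost when either F344 array was left out. Of 38 immediate early genes, which respond within minutes to handling and growth signals, 2 fell and 1 rose, 7.89% beside 1.9% of all genes called. Jun fell by 0.79, from 10.86 and 10.81 to 9.93 and 10.16, and its other probe sets differed by -0.76 and -0.99. Rgs2, a regulator of G protein signalling, fell by 0.85, and Myc rose by 0.8. Fos differed by -0.42 and Egr1 by -0.78 without a call, and the list median was -0.20. Jun, Rgs2 and Myc lost their calls whichever array was left out.

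The endocrine genes of the islet showed few differences. Ins1 differed by -0.13 (SE 0.12) and Ins2 by -0.2 (SE 0.13), glucagon (Gcg) by 0.25 (SE 0.17), somatostatin (Sst) by -0.11 (SE 0.18) and pancreatic polypeptide (Ppy) by 0.29 (SE 0.3), none of them called. Pyy, the peptide YY of endocrine cells, rose by 1.1, from 11.19 and 10.87 to 12.01 and 12.25, and lost its call whichever array was left out. Of 36 beta cell genes 0 were called in the limma fit, and 3 (8.33%, beside 17.2% of all genes) had an unadjusted p under 0.05. Their median was -0.01, from the transcription factors Pdx1 at 0.04 and Mafa at -0.26 to the glucose transporter Slc2a2 at -0.02. The list of oxidative phosphorylation had 0 calls among 49, with 7 (14.3%) at an unadjusted p under 0.05 and a median of 0.21. Duct genes gave 4 calls among 27 in both directions (14.8%, beside 1.9% of all genes). Muc1, Cldn10 and Slc4a4 rose by 1.57, 1.22 and 0.93, Aqp1 fell by 1.4, and the duct keratin Krt19 differed by 0.08. The other probe set of Slc4a4 went the opposite way, by -0.43, and that of Aqp1 differed by -0.39, both without a call. Of the 53 stellate and fibroblast genes Thy1 fell, by 0.9, a share of 1.89% beside 0.317% called lower among all genes. Its other probe set differed by -0.21. In the limma fit 18 of the 53 (34%, beside 17.2% of all genes) had an unadjusted p under 0.05, 13 higher and 5 lower. Of the 48 cell cycle genes Kif20b and Ccna2 rose, by 1.07 and 1.03, which is 4.17% beside 1.58% called higher among all genes. Muc1 kept its call whichever array was left out and Aqp1 in 3 of 4 cases, while Cldn10, Slc4a4, Thy1, Kif20b and Ccna2 lost theirs in at least 3.

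Because a congenic strain carries donor sequence around the selected locus, the genes next to Gimap5 were read in the gene order of the RefSeq table. Among the 50 annotated genes on either side 32 were measured and 2 called, 6.25% beside 1.9% of all genes, and the 100 on either side held the same 2 genes of 54. Igf2bp3, an RNA-binding protein, lies 14 genes from Gimap5 and measured 3.58 and 3.77 in F344 and 5.24 and 5.06 in F344lyp, a difference of 1.48 (SE 0.17, adjusted p = 0.00357). Its other probe sets differed by -0.13 and -0.06. Gpnmb, a membrane glycoprotein of macrophages and pigment cells, lies 12 genes away and rose by 1.05, from 5.39 and 5.15 to 6.18 and 6.45. Gpnmb lost its call whichever array was left out, and Igf2bp3 in 1 of 4 cases. Neither gene had an F344lyp level like that of the BB groups: the JB, JBlyp/lyp and DR+/+ means were 3.4, 3.42 and 4.36 for Igf2bp3 and 5.19, 5.31 and 5.53 for Gpnmb.

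Within 200 annotated genes on either side 5 of 114 measured genes were called, 4.39% beside 1.9% of all genes. Aqp1, the water channel of ducts and vessels, lies 135 genes away and measured 8.17 and 8.42 in F344 and 6.88 and 6.91 in F344lyp, a difference of -1.4 (SE 0.15, adjusted p = 0.00257). Its other probe set differed by -0.39 without a call. On the brightest probe set the F344lyp mean of Aqp1 was near the BB means of 6.91 in JB, 6.65 in JBlyp/lyp and 7.37 in DR+/+. Ppp1r17, 141 genes away, fell by 0.67, from 4.61 and 4.4 to 3.83 and 3.84. Here too the F344lyp level was near the BB means, 3.65 in JB, 3.57 in JBlyp/lyp and 3.61 in DR+/+. Called falls elsewhere went both ways. The F344lyp mean of Vip was 7.71, beside 7.81 in JB, 8.05 in JBlyp/lyp and 7.58 in DR+/+. That of Mga was 6.03, beside 8.43, 8.4 and 7.89. The share of falls near the BB means was not counted, and donor origin was not tested. The fifth gene is the uncharacterised 1810009J06Rikl, 167 genes away on the other side, named here after its values were seen. It measured 7.68 and 7.63 against 10.71 and 10.93, a difference of 3.17, with BB means of 5.93 in JB, 5.5 in JBlyp/lyp and 4.86 in DR+/+. Among measured genes it lies between Prss3bl1 and Prss3b, with Prss3, Prss2 and the trypsinogen Prss1 next in order. These differed by 1.44, 0.00, 1.16, 0.56 and 0.10 without a call. Whether its rise belongs with that of the acinar genes was not tested. The whole of chromosome 4 had 26 calls among 871 measured genes (2.99%), beside 1.9% of all genes. The highest shares were 3.24% on chromosome 15 and 3.12% on chromosome 2. Counts within 200 genes were 2, 2, 3 and 3 without F344 replicate 1, F344 replicate 2, F344lyp replicate 1 and F344lyp replicate 2.

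**Figure D4:**
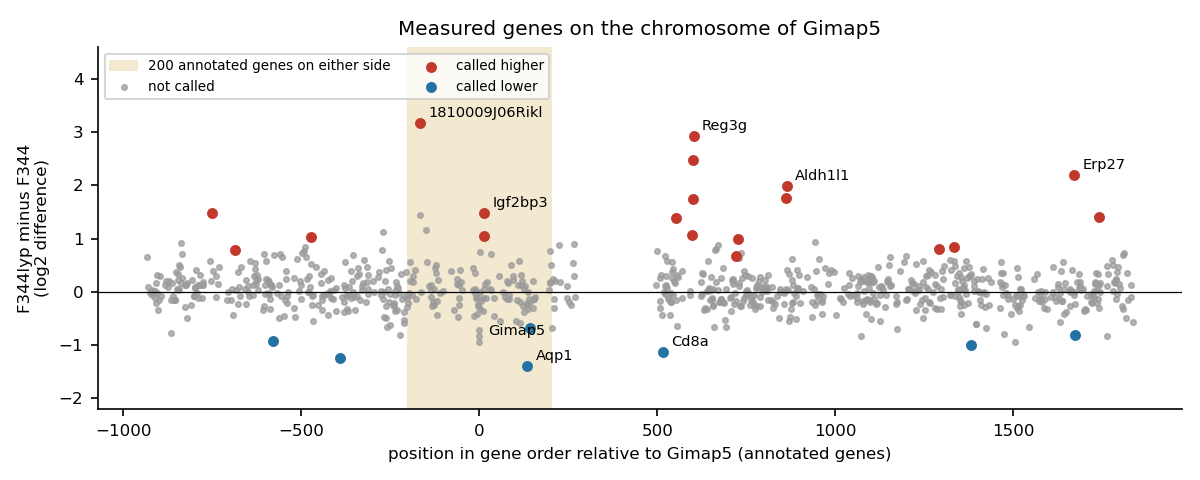
Difference F344lyp minus F344 (log2, vertical axis) of the measured genes on the chromosome of Gimap5, placed by their rank in gene order relative to Gimap5 (horizontal axis). Red and blue points are called higher and lower, grey points are not called, and the shaded band holds 200 annotated genes on either side. Of the 26 called genes 5 lie in the band, and the Reg lectins lie near 600.

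The same genotype was also compared on the JB background, between 2 JBlyp/lyp and 2 JB arrays, and the 2 comparisons share no array. There 1 gene was called, Reg3a, 0.00703% of all genes, and 1935 probe sets had an unadjusted p under 0.05, beside 4835 on the F344 background. The deviations of same-numbered JB and JBlyp/lyp arrays correlated at 0.65, beside 0.03 for F344 with F344lyp. The fit did not pair arrays, so spread shared by same-numbered arrays counted as error. The counts of the 2 backgrounds are therefore not on an equal footing. The test of the difference between the 2 effects called 68 genes, 0.478% of all, with 61 (0.429%) more positive and 7 (0.0492%) more negative on the F344 background, and 66 of them are among the 270 genes called in F344. For the other called genes the effects were not shown to differ. Over probe sets the count was 88 (0.283%), and leaving out F344 replicate 2, the most influential array, left 18.

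Reg3a is the gene that rose on both backgrounds. In JB it measured 4.47 and 4.79 and in JBlyp/lyp 7.45 and 6.92, a difference of 2.55 (adjusted p = 0.0177), and the difference from the F344 effect was -0.07 (SE 0.31, adjusted p = 0.984). Reg1a and Reg3b differed by 1.67 and 1.15 on the JB background without a call there, and their effects differed from those in F344 by 0.08 (SE 0.51) and -0.08 (SE 0.28). Reg3g differed between the backgrounds: it measured 4.91 and 4.86 in JB and 4.26 and 4.05 in JBlyp/lyp, and its effect in F344 was more positive by 3.65 (SE 0.22, adjusted p = 0.000317). The largest differences besides Reg3g were those of Lypd8 at 3.52, Si at 2.93, Amy1 at 2.8, Ptf1a at 2.79 and Tinag at 2.75. Acinar genes as a list had a median of -0.20 on the JB background beside 0.69 on the F344 background, and the difference was called for 7 of the 36.

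In the opposite direction the difference was called for Vip (-2.05), Gap43 (-1.54), Prph (-1.52), Scgb1c1 (-1.45), Tgm3 (-1.42) and Nefm (-1.31), and also for Vamp1, a synaptic vesicle protein. Vip measured 7.69 and 7.93 in JB and 8.21 and 7.89 in JBlyp/lyp, against its fall of 1.82 in F344. Several falls had a counterpart of the same sign in JB without a call there. Hspa1a differed by -0.92, Tcf7 by -0.93, Jun by -0.87, Rgs2 by -0.76 and Cd3d by -0.69 on the JB background, and the differences from the F344 effects were -0.38, -0.08, 0.09, -0.09 and -0.63, none of them called. Gimap5 differed by -0.7 there, from 7.05 and 5.95 to 5.95 and 5.65, and the JB arrays lay far apart.

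**Figure D5:**
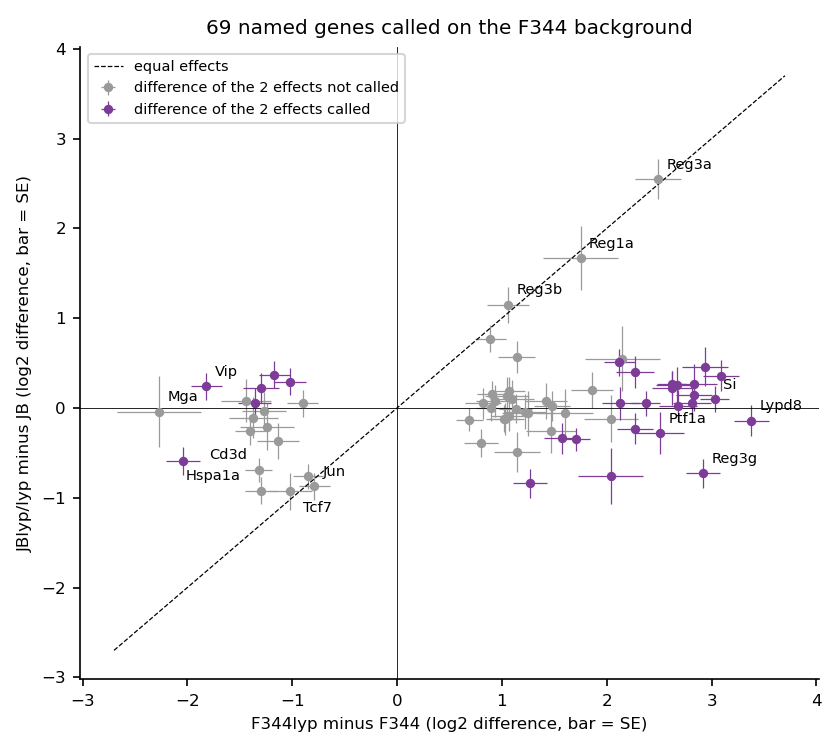
Difference between genotypes on the JB background (JBlyp/lyp minus JB, vertical axis) against that on the F344 background (F344lyp minus F344, horizontal axis), both log2 with bars of 1 standard error, for the 69 named genes called in F344. Purple points are the 28 genes whose 2 effects differ by the test, grey points the rest, and the dashed line marks equal effects. Reg3a, Reg1a and Reg3b lie near the line, while Lypd8, Si and Reg3g lie far from it.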

How the data were processed

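Islet RNA was measured on 10 Affymetrix arrays, 2 in each of 5 groups. The authors deposited log2 signals, 1 for each probe set on each array, computed, per the submitters' processing notes, using GCOS and RMA (versions not given in the sources used here). From them, limma 3.58.1 in R 4.3.3 fitted 1 mean per group to all 10 arrays (5 residual degrees of freedom, to which the prior added 4.72), with moderated two-sided tests and Benjamini-Hochberg adjustment over 31042 probe sets. A probe set or gene was called at an adjusted p under 0.05, with no filter on fold or level. The number of arrays, 2 per group, limits the precision.

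In the platform annotation 20826 probe sets have 1 symbol, 436 have several and 9780 have none. A gene is its brightest probe set over the 10 arrays. Named genes are the 12 largest rises and falls among called genes whose F344 and F344lyp arrays do not overlap. Also named are up to 4 called members of each of 34 lists and called genes within 50 annotated genes of Gimap5. The 6 largest differences between lyp effects, the Gimap genes and 5 hormones complete them, with uncharacterised loci passed over. Members of those lists outside this rule are given as values. The comparison and lists were chosen with earlier results of these data known. Gene order came from the RefSeq table (GRCr8), and promoter windows of 250 bases from the RefSeq promoter table. They were aligned with Biopython 1.88. Figures used matplotlib 3.10.9. Alternatives were 9 processing settings and each array left out.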

Additional observations from a re-analysis of the deposited data

Results flagged for a closer look

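For 28 of the named genes the lyp effect on the F344 background differed from that on the JB background by the limma interaction test over all probe sets, an adjusted p under 0.05. The values are the F344 effect minus the JB effect on the log2 scale. Epithelial genes showed Lypd8 at 3.52, Si at 2.93, Lgals4 at 2.32, Apoa1 at 1.87 and Muc2 at 1.62. Acinar genes showed Ptf1a at 2.79, Aqp8 at 2.66, Cuzd1 at 2.5, Gatm at 2.41 and Muc1 at 1.92, with the amylase Amy1 at 2.8. Reg3g stood at 3.65. Proteases of mast cells showed Mcpt1l1 at 2.49, Cma1 at 2.4 and Cpa3 at 2.08. Mesothelial genes showed Upk1b at 2.11 and Lrrn4 at 2.07. Tinag stood at 2.75, Ptger3 at 2.73, Cth at 2.69, Ang at 2.57 and Hsd3b1 at 2.35. The negative values were Vip at -2.05, Gap43 at -1.54, Prph at -1.52, Scgb1c1 at -1.45, Tgm3 at -1.42 and Nefm at -1.31. With the Gapdh 3′ minus 5′ difference as a covariate 7 probe sets were called for this difference in place of 88.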

How the results depend on the processing

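The counts were recomputed under 9 other settings and without each array. An intensity trend in the prior, median centring and, for genes, the mean over their probe sets kept within 1.5 times the counts of probe sets, genes, differences between lyp effects, genes near Gimap5 and called T cell, antioxidant (higher), Reg, acinar, intestinal and nerve genes. Calls in the smaller lists moved by up to 2 genes: the mean gave 4 immediate early genes lower in place of 2 and no MHC class I gene, and the trend gave 1 glutathione transferase in place of 2 and no antioxidant gene lower. Fitting the compared groups only called 3230 probe sets (2062 higher, 1168 lower) and 1658 genes (1197 higher, 461 lower), with 9 T cell genes lower, 9 antioxidant, 24 acinar and 14 intestinal genes higher and 22 genes within 200 of Gimap5. Quantile normalization gave 196 probe sets and 89 genes lower and 2 Reg lectins higher. Probe sets above the median level gave 265 calls (191 higher, 74 lower), 157 genes (127 higher), 50 differences between lyp effects, 1 T cell gene, 2 antioxidant and 3 intestinal genes. A mean of at least 6 gave 198 calls (143 higher, 55 lower), 120 genes (98 higher, 22 lower), 31 differences, 0 T cell genes, 2 antioxidant and 2 intestinal genes and 2 genes near Gimap5; both filters test fewer genes. The Gapdh covariate gave 123 calls (107 higher, 16 lower), 83 genes (74 higher, 9 lower), 7 differences, 1 T cell gene, 2 antioxidant genes, 2 Reg lectins, 6 acinar and 3 nerve genes and 3 genes near Gimap5, and the cause was not tested. It kept the calls of 34 of the 69 named genes, and quantile normalization those of 62. No named gene changed sign. Without 1 array the ranges were 58 to 241 probe sets (51 to 206 higher, 7 to 35 lower), 45 to 136 genes (41 to 120 higher, 4 to 16 lower) and 18 to 130 differences. For the lists they were 1 to 1 T cell, 2 to 2 antioxidant, 2 to 2 Reg, 6 to 8 acinar, 3 to 6 intestinal and 1 to 3 nerve genes, with 2 to 3 genes near Gimap5. Of the 69 named genes 25 kept their call without any 1 of the 4 compared arrays and 29 lost it in every case.

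The replicate numbers were not taken to pair the samples: the deviations of same-numbered F344 and F344lyp arrays correlated at 0.03, and over all pairs of the 5 groups the correlations ran from -0.10 to 0.65, the highest being JB with JBlyp/lyp. With the numbers as a replicate block 745 probe sets were called (526 higher, 219 lower), 82 genes were lower, 8 genes near Gimap5 were called and 121 probe sets were called for the difference between lyp effects.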

Other observations

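Some called genes outside the lists are given here as single values, picked from the calls after their values were seen, so they say nothing of any pathway or cell type as a whole. Gnmt, which uses the methyl donor S-adenosylmethionine, measured 6.57 and 6.34 in F344 and 8.2 and 7.96 in F344lyp, a difference of 1.62, and Ahcy, which makes homocysteine, rose by 0.96. Gamt, the second enzyme of creatine synthesis after Gatm, measured 6.69 and 6.71 against 8.31 and 8.3 and rose by 1.61. The folate enzyme Aldh1l1 rose by 1.99, the glutaminase Gls2 by 2.05, and Ggt1 and Dpep1, which break down glutathione and its products outside the cell, by 1.75 and 1.88. Bckdhb, Ivd and Aldh6a1, enzymes of branched-chain amino acid breakdown, rose by 0.82, 0.88 and 0.96, and Bckdk, a kinase that restrains it, by 1.14. The limma difference between lyp effects was also called for Gnmt, Aldh1l1, Gls2, Ggt1 and Dpep1, and not for Ahcy, Gamt, Bckdhb, Ivd, Aldh6a1 or Bckdk.

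Further single calls were chosen in the same way. The gap junction gene Gjb2 rose by 2.53, the calcium binding protein S100g by 2.56, Clca1 by 2.19 and the oxidase Duox2 by 1.96. The aquaporin Aqp12a rose by 1.9 and the kallikrein Klk1b3 by 2.22. Cfi, Cfd and C1s, which encode complement proteins, rose by 1.36, 1.21 and 0.84. Sncg, a synuclein, fell by 1.23, the tubulin Tubb2b by 1.23 and the vesicle protein Vamp1 by 1.01. Of the genes called for the difference between lyp effects, Tiparp and Hspb8 were not called in F344.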
